A study of Mus musculus with 6 samples.

Results

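Laminins, nidogens and Fras1 are large glycoproteins of the basement membrane, the sheet of matrix on which epithelia, vessels and the surface of the brain rest. The genes described here were taken by name from the count table: Lama1, Lama2, Lama4 and Lama5 for laminin alpha chains, Lamb1 and Lamb2 for beta chains, Lamc1 for a gamma chain, Nid1 and Nid2 for the nidogens, and Fras1. All 10 were found among 24503 gene symbols, and all 10 passed the filter on low counts that left 13683 genes for testing. They were chosen by family, with the differences between knockout and control in these same counts already known, so those differences are given as a description.

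Transcripts were measured by RNA-seq in neural stem cells that had been isolated from mouse embryonic cortex at E13.5, enriched as neurospheres and expanded with FGF at 10 ng/mL and EGF at 20 ng/mL. The dishes were coated with laminin at 5 µg/mL, so all cultures met laminin protein that was added from outside and does not enter RNA counts. The control group (WT, n = 3 libraries) was Phf2 flox/flox with no Cre. The knockout group (KO, n = 3 libraries) was Phf2 flox/flox and also had the Nestin-Cre transgene, B6.Cg-Tg(Nes-cre)1Kln/J, in which Nestin sequences direct Cre to neural progenitors. Phf2 encodes a Jumonji-family histone demethylase, and the comparison addresses what its deletion does to transcript levels. Both groups thus share the floxed alleles, the transgene is present in KO alone, and there is no group with Cre and unfloxed Phf2. The labels do not say whether the libraries of a group came from separate embryos or cultures, so every p-value measures only the spread between these libraries, which may be technical.

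A laminin molecule is a cross-shaped trimer of 1 alpha, 1 beta and 1 gamma chain that assembles inside the cell. Once secreted, the short arms of the chains join into a network, and the globular domains at the end of the alpha chain bind integrins and dystroglycan on cells. Nidogens bind the laminin gamma1 chain and collagen IV and link both networks. Fras1 forms a complex with Frem1 and Frem2 that anchors embryonic epithelium to the matrix beneath it. In the developing cortex, radial glia attach to the basement membrane at the brain surface through laminin receptors.

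Total counts ranged from 33413444 to 46890314 per library. Phf2 lay between 77.8 and 109 CPM (counts relative to the library total, TMM-scaled) in WT and between 48.1 and 56.3 CPM in KO. The libraries numbered 1 stood apart from numbers 2 and 3 in both groups, and KO 2 and KO 3 resembled each other more than any other pair of the same group. Replicate numbers were therefore also entered as a block, which compares WT and KO within a number. Without the block, edgeR's quasi-likelihood test called 0.0585% of all tested genes at an adjusted p under 0.05, and with the block it called 9.79%, 3.33% higher and 6.46% lower in KO.

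Promoter sequence was looked up because several of these genes differed between the groups with the block, some lower and some higher in KO. RefSeq windows of 250 bases before the start site (GRCm38.p6) matched 5 of the 10 genes, Lama2, Lama5, Lamb1, Lamb2 and Nid1. The windows of Lamb1, which was higher in KO with the block, Nid1, which was lower, and Lama5, which did not pass, are shown up to the first base of the gene in GENCODE vM21. Capitals mark the GC box GGGCGG on either strand.
Lamb1 (chr12:31265043-31265233, plus strand): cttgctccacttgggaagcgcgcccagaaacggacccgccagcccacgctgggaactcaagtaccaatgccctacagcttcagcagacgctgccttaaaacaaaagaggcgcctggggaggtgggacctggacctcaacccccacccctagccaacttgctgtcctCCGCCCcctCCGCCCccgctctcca
Nid1 (chr13:13437352-13437550, plus strand): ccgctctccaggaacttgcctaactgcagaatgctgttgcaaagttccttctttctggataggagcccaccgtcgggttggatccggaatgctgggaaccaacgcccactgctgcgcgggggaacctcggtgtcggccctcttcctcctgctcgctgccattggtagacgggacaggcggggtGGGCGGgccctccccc
Lama5 (chr2:180225860-180226109, minus strand): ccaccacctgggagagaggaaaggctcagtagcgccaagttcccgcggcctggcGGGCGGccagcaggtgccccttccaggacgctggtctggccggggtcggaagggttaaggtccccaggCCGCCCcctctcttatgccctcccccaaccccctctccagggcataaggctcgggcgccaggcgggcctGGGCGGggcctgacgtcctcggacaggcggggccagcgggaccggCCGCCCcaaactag

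In the full windows of 250 bases, Lama5 held 4 GC boxes, Lamb1 held 2 and Nid1 held 1, while Lama2 and Lamb2 held 0. A GC box was present in 32.7% of all 32851 promoter windows of the same length. Lama5, Nid1 and Lamb1 had 19, 16 and 14 CpG dinucleotides, against 3 in Lamb2, 0 in Lama2 and a median of 6 over all windows. Fras1, Nid2, Lama4, Lama1 and Lamc1 had no matched window, and a link between promoter sequence and the difference in KO was not tested. The Lama2 window (chr10:27616943-27617192, minus strand) lies inside the GENCODE gene, and the Lamb2, Lamb1 and Nid1 windows span the GENCODE start. Counts in these full windows thus include bases inside the gene model used here. The parts of Lamb1 and Nid1 shown above, before that start, held 10 and 13 CpG. A search on both strands found TATAAA and TGANTCA in 0 of the 5 windows, and they occur in 12.4% and 6.75% of all windows. These are matches of letters and not measured binding sites.

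With the replicate block, 4 of the 10 genes fell in KO (Fras1, Nid1, Nid2 and Lama2), 2 rose (Lama4 and Lamb1) and 4 did not pass (Lama1, Lama5, Lamb2 and Lamc1). In the same fit 6.46% of all tested genes were called lower and 3.33% higher. Without the block, 0 of the 10 were called and 4 had an unadjusted p under 0.05 in edgeR's test, against 0.0585% called and 5.81% with an unadjusted p under 0.05 over all genes. The median log2 difference, KO minus WT, over the 10 genes was −0.42 with the block and −0.41 without it, against 0.01 for all 13683 tested genes in both fits. In 3 genes all KO libraries were lower than all WT libraries, in 1 gene all were higher, and in 6 the groups overlapped, beside 6.71% and 4.49% of all tested genes with such gaps. Within the numbers, 6 genes were lower in KO in all 3 pairs and 2 were higher in all 3, beside 23.4% and 22.6% of tested genes. The pairs of numbers 2 and 3 rest on the labels only. Deviations from the group mean correlated at 0.743 between WT 2 and KO 3, against 0.684 between WT 2 and KO 2. In numbers 2 and 3 alone, where 5.4% of tested genes were called without a block, 3 of the 10 were called lower and 0 higher. When KO 2 and KO 3 were added together and number 1 was the block (4.94% of tested genes called), 4 were called lower and 1 higher. DESeq2 called 2 lower and 0 higher without the block (1.69% of tested genes) and 3 lower and 2 higher with it (8.23%). In bulk RNA, fewer cells that express a gene and less RNA per cell cannot be told apart.

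**Figure D1:**
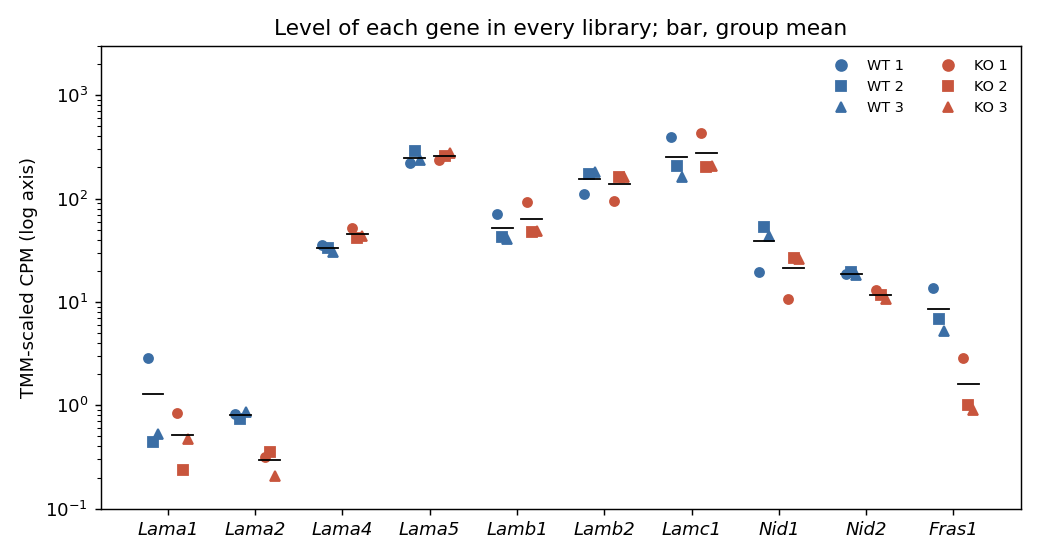
Levels of the 10 genes in each of the 6 libraries, in TMM-scaled CPM on a log axis, with symbols for the replicate number and a bar for each group's mean. All KO points lie under all WT points for Fras1, Nid2 and Lama2 and over them for Lama4, and Lamc1, Lamb1, Nid1 and Fras1 set the libraries numbered 1 apart in both groups.

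Compared per kilobase of exon, Lamc1, Lamb2 and Lama5 were the most abundant of the 10, at 30.7 ± 14.9, 25.5 ± 6.29 and 21.8 ± 3.08 CPM per kb in WT (SD, n = 3). Their ranges over the WT libraries overlapped in that order, so these 3 were not separated by more than the spread. Nid1 (5.55 ± 2.51), Lamb1 (5.19 ± 1.71), Nid2 (3.64 ± 0.112) and Lama4 (2.76 ± 0.227 CPM per kb) followed, and only Nid1 and Lamb1 overlapped as neighbours there. Fras1 (0.487 ± 0.256), Lama1 (0.133 ± 0.143) and Lama2 (0.0498 ± 0.00389 CPM per kb) were lowest. The range of Lama1 overlapped those of Fras1 and Lama2, through its high value in WT 1 (0.299) for Fras1, while Fras1 and Lama2 did not overlap. In KO the group means of the first 3 kept their order, with ranges that overlapped between neighbours. Single libraries did not all keep it. Lamb2 lay above Lamc1 in numbers 2 and 3 of both groups, with 26.8 against 24.4 CPM per kb in KO 2. In number 1 Lama5 lay above Lamb2 in both groups, with 20.6 against 15.6 CPM per kb in KO 1. The KO mean of Nid1 came after those of Lamb1 and Lama4, at 3.05 ± 1.31 against 6.38 ± 2.63 and 3.77 ± 0.446 CPM per kb. Ranges in KO overlapped between Lama4 and Nid1, between Nid1 and Nid2, and between Fras1 and Lama1. Using the longest transcript as the length raised Lama4 to 5.51 and Lamb1 to 8.90 CPM per kb in WT, which puts Lamb1 above Nid1 and Lama4 above Nid2.

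Lama5 encodes the alpha5 chain, the main alpha chain of many embryonic and adult basement membranes. It lies on the minus strand of chromosome 2 (180176373 to 180225859, GENCODE vM21 on GRCm38, as for all genes here). Its level was 220.2, 288 and 238 CPM in WT 1, 2 and 3, against 234, 260.3 and 275 CPM in KO 1, 2 and 3. The groups overlapped, and the highest value was in WT 2. The log2 difference, KO minus WT, was 0.05 ± 0.0758 (SE) with the block and 0.04 ± 0.131 without it, and it did not pass in any of the 24 settings tried, whose values ranged from −0.04 to 0.17.

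Lama4, on chromosome 10 (38965515 to 39110188, plus strand), encodes the alpha4 chain, typical of vessels and mesenchymal tissue. It was measured at 35.9, 33.6 and 30.4 CPM in WT 1, 2 and 3, against 51.5, 41.1 and 43.9 CPM in KO 1, 2 and 3. All KO libraries were higher than all WT libraries, and the libraries numbered 1 differed little from the others in either group. Lama4 rose by 0.45 ± 0.0777 (log2, SE; edgeR adjusted p = 0.00563) with the block. Without it the difference was 0.45 ± 0.130, with edgeR adjusted p = 0.487. All 10 settings with a block called it, and 0 of the 14 without one did.

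Lama2, on chromosome 10 (26980036 to 27619758, minus strand), encodes the alpha2 chain of muscle, Schwann cell and brain vessel basement membranes, whose loss causes a congenital muscular dystrophy. Only 30 to 41 reads were counted per WT library and 7 to 15 per KO library. Its levels were 0.826, 0.744 and 0.869 CPM in WT 1, 2 and 3, against 0.316, 0.354 and 0.208 CPM in KO 1, 2 and 3. The groups did not overlap, and the smallest gap was between 0.744 CPM in WT 2 and 0.354 CPM in KO 2. Lama2 fell by 1.45 ± 0.344 (log2, SE; edgeR adjusted p = 0.0265) with the block, and without it the difference was −1.46 ± 0.325 with edgeR adjusted p = 0.282. DESeq2 with the block did not call it (adjusted p = 0.113), and with the block it was not called without number 1 (edgeR adjusted p = 0.0605) or number 3 (0.0908).

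Lama1, on chromosome 17 (67697259 to 67822647, plus strand), encodes the alpha1 chain of the earliest embryonic basement membranes. WT 1, 2 and 3 had 133, 18 and 25 reads (2.89, 0.446 and 0.530 CPM). KO 1, 2 and 3 had 35, 10 and 16 reads (0.851, 0.236 and 0.476 CPM). WT 1 was far above the other 5 libraries, and the groups overlapped. The log2 difference was −1.14 ± 0.352 (SE) with the block, with edgeR adjusted p = 0.0733. Leaving out WT 1 turned it to 0.11 ± 0.585 without a block, and leaving out number 1 altogether gave −0.49 ± 0.489 with the block. The pair differences were −1.76 for number 1, −0.92 for number 2 and −0.16 for number 3. Numbers 2 and 3 are matched by label only, and KO 3 (0.476 CPM) lay above WT 2 (0.446 CPM). With number 2 or number 3 left out, the blocked edgeR fit did call Lama1, with adjusted p of 0.0202 and 0.0278.

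Within the alpha chains, Lama5 made up 85.1, 89.0 and 88.2% of the summed CPM per kb in WT 1, 2 and 3, against 82.4, 86.7 and 86.5% in KO 1, 2 and 3. Lama4 made up 13.1, 9.80 and 10.7% in WT and 17.1, 12.9 and 13.1% in KO. Its share was higher in KO than in WT within each number, but KO 2 and KO 3 did not exceed WT 1. Lama1, Lama2 and Lama3 each stayed at or under 1.31% in every library. With the longest transcript as the length, the Lama4 share was 17.8 to 23.1% in WT and 22.8 to 29.1% in KO.

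**Figure D2:**
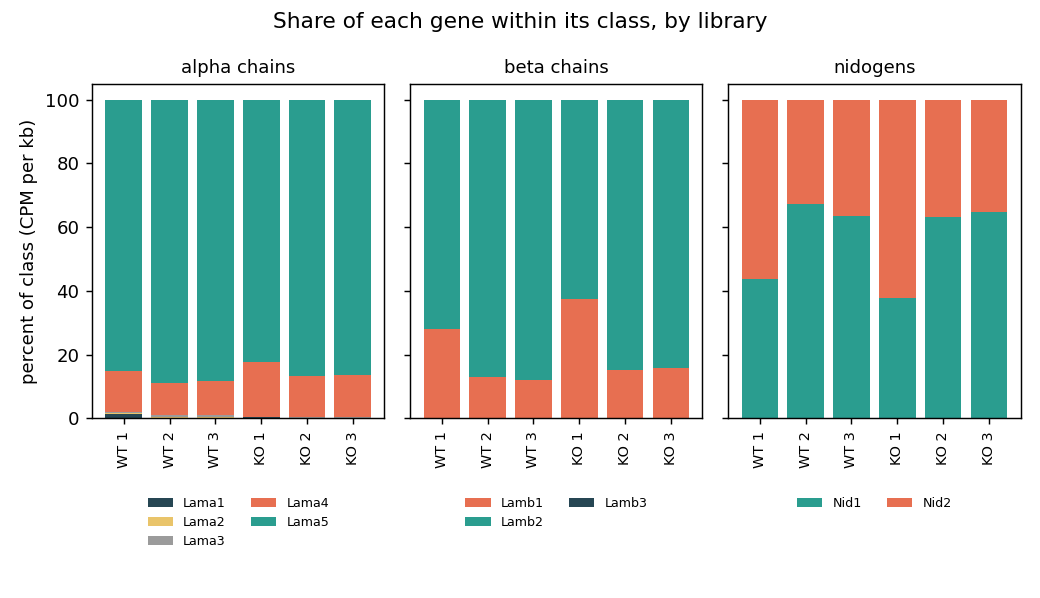
Share of each gene within the laminin alpha and beta chains and within the nidogens in every library, as a percent of the summed CPM per kb of exon. Lama5 and Lamb2 fill most of their classes in every library, while Lamb1 and Nid2 take larger shares in WT 1 and KO 1 than in the other libraries.

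Lamb1 and Lamb2 encode the beta1 and beta2 chains, which take the same place in the trimer. Lamb1 lies on chromosome 12 (31265234 to 31329644, plus strand) and was measured at 71.1, 42.5 and 40.8 CPM in WT 1, 2 and 3, against 93.4, 47.5 and 49.0 CPM in KO 1, 2 and 3. Libraries numbered 1 were highest in each group, so KO 2 and KO 3 lay below WT 1 and the groups overlapped. With the block Lamb1 rose by 0.27 ± 0.0718 (log2, SE; edgeR adjusted p = 0.0403), and without it the difference was 0.30 ± 0.344 with edgeR adjusted p = 0.999. The blocked call was lost without number 1 (edgeR adjusted p = 0.291), with KO 2 and KO 3 summed (0.111) and under upper-quartile scaling (0.0687).

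Lamb2, on chromosome 9 (108479736 to 108490530, plus strand), is the beta chain of synaptic, glomerular and vascular basement membranes. It had 111, 173 and 181 CPM in WT 1, 2 and 3, against 94.9, 163 and 162 CPM in KO 1, 2 and 3. Here the libraries numbered 1 were lowest in each group, the reverse of Lamb1. The log2 difference of −0.16 ± 0.0617 (SE) with the block did not pass, with edgeR adjusted p = 0.144. The ratio of Lamb1 to Lamb2, per kb of exon, was 0.392, 0.151 and 0.138 in WT 1, 2 and 3, against 0.604, 0.179 and 0.186 in KO 1, 2 and 3. Each KO library thus had the higher ratio within its number, and the gap between number 1 and the others was wider than that between the genotypes.

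Lamc1, on chromosome 1 (153218922 to 153332786, minus strand), encodes the gamma1 chain, shared by most laminins and bearing the nidogen binding site. Its level was 394, 206 and 162 CPM in WT 1, 2 and 3, against 427, 202 and 206 CPM in KO 1, 2 and 3. WT 1 and KO 1 were higher than every other library, by 1.10 (log2) over the mean of numbers 2 and 3 in WT and by 1.07 in KO. Its log2 difference between KO and WT was 0.14 ± 0.0781 (SE) with the block, with edgeR adjusted p = 0.304, and 0.13 ± 0.433 without it.

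Nid1 encodes nidogen-1 (chromosome 13, 13437551 to 13512269, plus strand). It had 19.4, 53.3 and 43.0 CPM in WT 1, 2 and 3, against 10.7, 26.7 and 26.2 CPM in KO 1, 2 and 3. Within each number KO was lower, by 0.85, 1.00 and 0.72 on the log2 scale for numbers 1, 2 and 3, but the low WT 1 lay below KO 2 and KO 3, so the groups overlapped. Nid1 fell by 0.86 ± 0.0822 (log2, SE; edgeR adjusted p = 0.000201) with the block. Without it the difference was −0.86 ± 0.478 with edgeR adjusted p = 0.999, and in numbers 2 and 3 alone it was −0.87 ± 0.122 with edgeR adjusted p = 0.0156. All 10 settings with a block called it.

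Nid2, on chromosome 14 (19751265 to 19811787, plus strand), encodes nidogen-2, which can stand in for nidogen-1 in many tissues. It was steady within WT, at 18.6, 19.5 and 18.4 CPM in WT 1, 2 and 3, and lower at 13.1, 11.6 and 10.6 CPM in KO 1, 2 and 3. The groups did not overlap, and number 1 did not stand apart. Nid2 fell by 0.68 ± 0.0962 (log2, SE; edgeR adjusted p = 0.00181) with the block, and without it the difference was −0.68 ± 0.130 with edgeR adjusted p = 0.194. In numbers 2 and 3 alone it was −0.77 ± 0.101 with edgeR adjusted p = 0.0127, and DESeq2 without a block called it with adjusted p = 0.0019. Of its exons, 437 bp overlap the opposite-strand gene Rtraf (2700060E02Rik in the table), which had 4075 to 6515 counts per library. Whether counting used the strand is not stated in the sources used; that gene differed by −0.04 ± 0.0690 (log2, SE) with the block.

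Nid1 made up 43.7, 67.1 and 63.6% of the nidogens per kb in WT 1, 2 and 3, against 37.9, 63.1 and 64.8% in KO 1, 2 and 3. Its share was thus between 63.1 and 67.1% in numbers 2 and 3 of both groups, while number 1 held more Nid2 than Nid1 in both groups. Their summed level was 6.38, 11.4 and 9.75 CPM per kb in WT 1, 2 and 3, against 4.08, 6.09 and 5.82 CPM per kb in KO 1, 2 and 3. Summed astrocyte markers (5 of 5 genes in the table, all detected) were lower in KO within each number, at 162, 387 and 408 CPM in WT 1, 2 and 3, against 62.6, 154 and 154 CPM in KO 1, 2 and 3. Most of that sum came from Aldh1l1 and Gfap. With the block Aldh1l1, Gfap and Slc1a2 fell, while Aqp4 and S100b did not pass, and Slc1a2 was highest in WT 1, at 44.3 CPM against 32.2 and 22.8 CPM in WT 2 and WT 3. Summed neuron markers (6 genes) were 55.1, 120 and 99.4 CPM in WT and 30.9, 67.0 and 64.7 CPM in KO, also lower within each number. Syt1 made up most of this sum, at 43.1, 100 and 81.5 CPM in WT 1, 2 and 3. With the block Syt1 and Stmn2 fell, Tubb3, Dcx and Snap25 did not pass, and Rbfox3 was too low to be tested. The part of either list in the nidogen difference was not tested.

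Fras1, on chromosome 5 (96373955 to 96784728, plus strand), had the largest difference of the 10 genes. WT 1, 2 and 3 had 634, 275 and 248 reads (13.8, 6.82 and 5.26 CPM). KO 1, 2 and 3 had 119, 43 and 30 reads (2.90, 1.01 and 0.892 CPM). All KO libraries were lower than all WT libraries, and the libraries numbered 1 were highest in each group. Fras1 fell by 2.48 ± 0.154 (log2, SE; edgeR adjusted p = 1.68e-05) with the block. Without it the difference was −2.42 ± 0.595 with edgeR adjusted p = 0.342. In numbers 2 and 3 alone it was −2.65 ± 0.220 with edgeR adjusted p = 0.00379, and DESeq2 without a block gave adjusted p = 0.00171. The lowest and highest values over the 24 settings were −3.17 without KO 1 and −1.89 without WT 1.

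**Figure D3:**
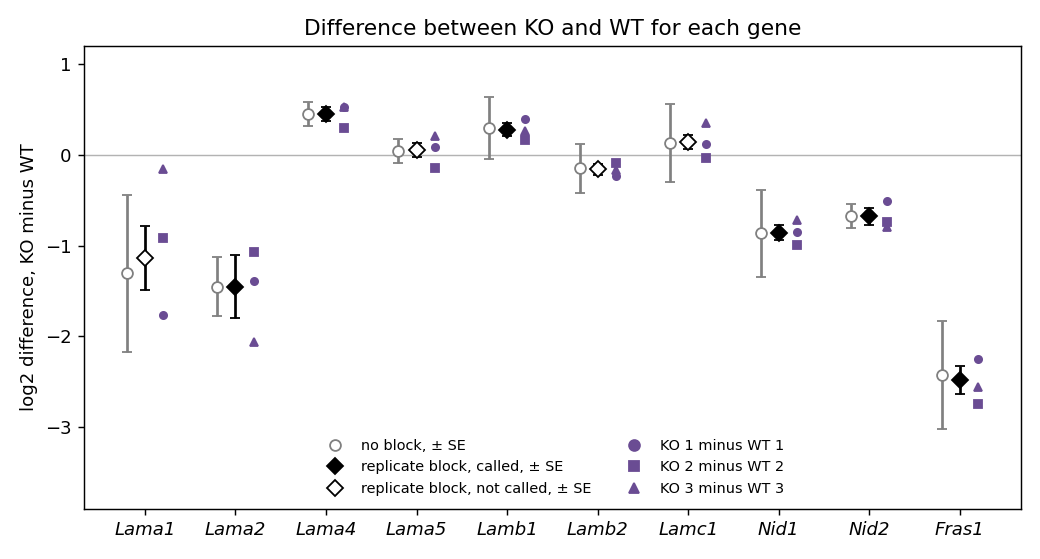
Log2 difference, KO minus WT, for each of the 10 genes without a block and with the replicate block, both with SE, and for each pair of libraries with the same number. Fras1 has the lowest values, the blocked SE is smaller than the unblocked one for every gene but Lama2, and Lama5 and Lamc1 have pairs on both sides of 0.

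The libraries numbered 1 shifted these genes in different directions. Relative to the mean of numbers 2 and 3 on the log2 scale, number 1 was higher for Fras1 (1.19 in WT and 1.60 in KO), Lama1 (2.57 and 1.26) and Lamb1 (0.77 and 0.95), as it was for Lamc1. It was lower for Nid1 (−1.32 in WT and −1.30 in KO) and Lamb2 (−0.67 and −0.77). Lama5 (−0.26 and −0.19), Lama4 (0.16 and 0.28), Lama2 (0.04 and 0.17) and Nid2 (−0.03 and 0.24) lay within 0.3 of the others. The sign was the same in WT and KO for every gene but Nid2.

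Other laminin chain genes were scarce. Lama3, the alpha3 chain of epithelial basement membranes, was measured at 0.739, 2.60 and 1.67 CPM in WT 1, 2 and 3, against 0.268, 0.684 and 0.833 CPM in KO 1, 2 and 3. It fell by 1.48 ± 0.275 (log2, SE; edgeR adjusted p = 0.00807) with the block and did not pass without it (0.838). Lamb3 (0.174 and 0.199 CPM in WT and KO) and Lamc3 (0.307 and 0.0909 CPM) were too low to be tested.

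Partners of Fras1 did not all move with it. Frem1, which joins Fras1 in the Fraser complex, was more abundant than Fras1, with 20.3 ± 7.94 CPM in control and 17.6 ± 6.97 CPM in knockout cells (SD, n = 3), and its difference of −0.21 ± 0.107 (log2, SE) with the block did not pass. Frem2 (0.746 ± 0.50 and 0.521 ± 0.183 CPM) did not pass either. Frem3 and Vwa2 had 0 counts in all 6 libraries, which allows at most 0.0636 to 0.0892 CPM per library at a limit of 3 counts that covers counting error only. Npnt, the matrix ligand nephronectin, fell from 52.3 ± 5.96 to 29.9 ± 4.68 CPM (−0.81 ± 0.0722 log2, SE; edgeR adjusted p = 0.000131 with the block and 0.194 without). Its receptor subunit gene Itga8 did not pass, at 7.91 ± 1.86 and 5.83 ± 0.491 CPM. Grip1, a scaffold protein that carries Fras1 to the cell surface, rose from 72.7 ± 3.09 to 90.0 ± 5.37 CPM (0.31 ± 0.0630 log2, SE; edgeR adjusted p = 0.0132 with the block and 0.548 without).

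Of 20 other basement membrane genes, 16 were tested, and 6 fell, 1 rose and 9 did not pass with the block. Over all tested genes 6.46% were called lower and 3.33% higher in that fit. Without the block edgeR called 0, with 3 at an unadjusted p under 0.05, and DESeq2 called 1. The shares over all tested genes there were 0.0585%, 5.81% and 1.69%. Col18a1, the collagen XVIII chain, went from 63.7 ± 12.2 to 30.3 ± 6.01 CPM (−1.07 ± 0.0686 log2, SE, with the block). Sparc, a collagen-binding matricellular protein, changed by −0.39 ± 0.0684 and Col4a6, a collagen IV chain, by −0.50 ± 0.0967, while Smoc1 rose by 0.50 ± 0.0682 (log2, SE). Adjusted p for these 4 lay between 1.69e-05 and 0.00923 in edgeR's test with the block and between 0.192 and 0.999 without it. The list's median was −0.17 (log2) with the block, against 0.01 for all tested genes.

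Genes that receive or process laminin signals were taken as 3 lists, beside all tested genes, of which 9.79% were called with the block and 23.7% had an unadjusted p under 0.05 in that fit. Of 11 laminin receptor genes, Itga7, the integrin alpha7 subunit, fell (−0.36 ± 0.0612 log2, SE; edgeR adjusted p = 0.0047 with the block), 0 rose and 10 did not pass, with a median of −0.10. Without the block the Itga7 call was lost (edgeR adjusted p = 0.859), and its groups overlapped. Itga7 is named here because it was the single call, after its value was seen. Itgb1, the beta subunit shared by laminin-binding integrins, had 987 ± 29.9 and 945 ± 35.5 CPM in WT and KO, and Dag1, dystroglycan, had 486 ± 27.7 and 487 ± 25.7 CPM (SD, n = 3), and neither passed. Of 12 tested enzymes that build the laminin-binding sugar on dystroglycan, 0 were called in either edgeR fit or by DESeq2, with 0 and 3 at an unadjusted p under 0.05 without and with the block and a median of −0.09 with it. The most abundant, Pomgnt1, had 99.3 ± 3.78 and 93.1 ± 3.50 CPM and Pomt2 had 82.4 ± 4.86 and 75.9 ± 3.91 CPM. In 4 of these 12 genes all KO libraries were lower than all WT libraries, and in 0 all were higher. Over all tested genes those shares were 6.71% and 4.49%. Among 11 adaptors of integrin adhesions, 0 were called in either edgeR fit, with 0 and 2 at an unadjusted p under 0.05 and a median of 0.08 with the block, and DESeq2 with the block called 1. Tln1 (talin) had 281 ± 11.6 and 303 ± 4.98 CPM, and Ptk2 (focal adhesion kinase) 204 ± 52.1 and 219 ± 54.8 CPM.

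**Figure D4:**
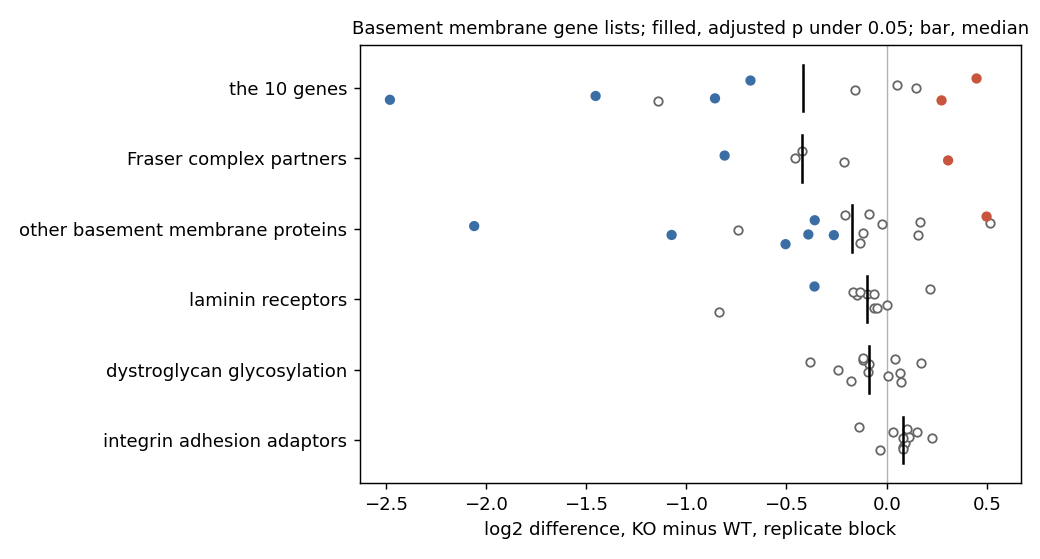
Log2 difference, KO minus WT, in the fit with the replicate block for the 10 genes and for 5 lists of related genes, with 1 point per tested gene, filled where the adjusted p was under 0.05, and a bar at the list's median. Most called points lie to the left of 0 in the 10 genes and in the other basement membrane proteins, and no point is filled among dystroglycan glycosylation and integrin adhesion adaptor genes.

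Likeness to Fras1, Lama4 and Lamb1 was the root mean square difference of log2 profiles over the 6 libraries, each centred on its mean. Before the log, 0.5 was added to each CPM, which narrows differences at low levels such as Fras1 in KO 2 and KO 3 (1.01 and 0.892 CPM). The genes most like them were taken from the 9579 tested genes that averaged 10 CPM or more. For Fras1 these were F2rl1 (0.212), a protease-activated receptor gene, Thy1 (0.294) and Nrn1 (0.341). F2rl1 had 40.6, 19.2 and 18.6 CPM in WT 1, 2 and 3, against 13.6, 4.76 and 4.70 CPM in KO 1, 2 and 3, high in number 1 and low in KO as Fras1 was. For Lama4 they included Pik3r1 (0.0641) and Rfwd2 (0.0681). For Lamb1 they were Nsun5 (0.0525), Uck2 (0.0653) and Slc1a5 (0.0722). All these values are in log2 units over 6 libraries, and they describe likeness of level only.

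Neural stem cell markers were abundant in all libraries. They summed over 8 genes to between 9310 and 10600 CPM in control and between 9220 and 10400 CPM in knockout libraries. Vim and Fabp7 made up most of that sum. Hes5 had 18.3 CPM in WT 1 and 23.4 CPM in KO 1, against 232 to 312 CPM elsewhere. With the block Hes5 rose and 7 did not pass, and Nes was highest in number 1 in both groups. Oligodendrocyte lineage markers (6 genes) summed to 3360 to 4060 CPM in WT and 3290 to 3520 CPM in KO, mostly from Olig1 and Olig2. With the block Pdgfra rose, Sox10 fell and 4 did not pass. Most listed markers of endothelial cells, fibroblasts and mural cells, which make laminins in the brain, stayed under 1 CPM. Of 10 endothelial markers, 8 stayed under 1 CPM, among them Cdh5 with 0 counts in every library. The sum of 17.4 to 22.6 CPM in WT and 15.3 to 21.4 CPM in KO came mostly from Plvap. Of 9 fibroblast markers, 7 stayed under 1 CPM, among them Dcn with 0 counts. Their list summed to 34.9 to 46.7 CPM in WT and 40.2 to 65.8 CPM in KO, mostly from Foxc1. With the block 3 of the 4 tested fibroblast markers were called, beside 9.79% of all tested genes. Without it their edgeR adjusted p lay between 0.192 and 0.999. Foxc1 was higher in KO (0.36 ± 0.0779 log2, SE). Twist1 had 3, 0 and 0 counts in the WT libraries and 28, 32 and 16 in the KO libraries. Col1a2 was lower, with a mean of 0.191 ± 0.0610 CPM in KO against 0.735 ± 0.311 CPM in WT (SD, n = 3). Its counts were low too, at 5, 9 and 8 in KO 1, 2 and 3. Their part in the laminin differences was not tested. Of 8 mural cell markers 6 stayed under 1 CPM, and the sum was 113 CPM in WT 1 and in KO 1 against 293 to 339 CPM in the other 4 libraries, mostly from Notch3, low in number 1 as Nid1 was; its part in the Nid1 values was not tested. Of 8 microglia markers 7 stayed under 1 CPM, and Aif1, Fcrls, Ptprc and C1qa had 0 counts. P2ry12 had 33, 15 and 29 counts in the WT libraries and 46, 28 and 30 in the KO libraries. It did not pass with the block.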

How the data were processed

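RNA-seq counts were analysed for 3 WT and 3 KO libraries. The deposited table holds raw whole-number counts by gene symbol. The submitters' processing notes name FastQC, cutadapt, Trim Galore, Bowtie2, RSEM and build mm10; versions, annotation, strand setting and how RSEM estimates were rounded are not stated in the sources used. Members and gene lists were chosen with earlier results of these data known.

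With edgeR 4.0.16 (R 4.3.3), genes were filtered by filterByExpr (minimum count 10), scaled by TMM and tested over all genes by the quasi-likelihood test, two-sided, with Benjamini-Hochberg adjustment; called means adjusted p under 0.05. SE is the log2 difference over the square root of F. A second fit had a block for the replicate number: deviations from the group mean correlated at 0.903, 0.684 and 0.646 for numbers 1, 2 and 3, over the limit of 0.1, and at 0.743 and 0.667 across numbers 2 and 3, so the pairing comes from the data and separates number 1 only. By a chi-square per gene, KO 2 and KO 3 had a median of 1.02 and WT 2 and WT 3 of 5.25, where counting noise gives 0.455. CPM per kb uses the union of GENCODE vM21 exons. Scripts were tested on simulated data. DESeq2 1.42.0 was an alternative. From the lists, up to 4 genes called with the block by lowest p are named, or the 2 most abundant where fewer than 2 were called; all other laminin chains and Fraser complex partners are named, and the 3 nearest profiles to Fras1, Lama4 and Lamb1, apart from results that are not reported here.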

Additional observations from a re-analysis of the deposited data

How the results depend on the processing

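Without a block the number of calls over all genes was 8, and 0 to 743 when libraries were left out, the highest with both libraries numbered 1 left out and 21 without WT 1; the 7 settings with 0 calls had 249 to 864 genes at an unadjusted p under 0.05 in edgeR's test. EdgeR called 0 of the 10 genes with any single library left out, and 3 lower (Fras1, Nid1 and Nid2) without number 1. Without a block, RLE size factors and no filter gave 8 calls each and upper-quartile scaling 6 (2 higher and 4 lower, against 4 and 4), 0 of them among the 10. DESeq2 without a block called 244 genes, 2 of the 10 lower. With the replicate block 1340 genes were called, 2 of the 10 higher and 4 lower. Under a block of number 1 against the others these were 1445, 2 and 4, with the replicate block and RLE size factors 1251, 2 and 4, under upper-quartile scaling 1310, 1 and 4, with no filter 1661, 2 and 5, and with DESeq2 1188, 2 and 3. With KO 2 and KO 3 summed they were 688, 1 and 4. With the block and number 1, 2 or 3 left out, 1037, 1248 and 1456 genes were called, 1 or 2 of the 10 higher and 3 to 5 lower. With libraries left out, signs turned for 5 genes, none called there. Lama1 ranged from −1.87 to 0.11 (turned without WT 1), Lamb1 from −0.093 to 0.62 and Lamb2 from −0.33 to 0.066 (turned without KO 1), and Lamc1 from −0.32 to 0.61 (turned without WT 3, at −0.11, and without KO 1). Lama5 ranged from −0.039 to 0.17 (turned without WT 1, at −0.025, without KO 3, at −0.0060, and without number 3, at −0.039, or −0.028 with the block). The cause of these shifts was not tested. Depth limits Lama2 and Lama1, with as few as 7 and 10 counts in a library.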
